A study of Mus musculus with 6 samples.

Results

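Pdgfra, Cspg4, Olig1, Olig2, Sox10, Bmp4, Enpp6 and Gpr17 are genes of the oligodendrocyte precursor and of the first steps of its lineage. They were chosen by gene symbol, and each was found on 1 row, so that 8 of the 16060 rows of the table are described. RNA-seq of the hippocampus (HIPP) was compared between 3 libraries labelled Control, from adult male C57BL/6 mice that received saline intraperitoneally, and 3 labelled MA, from such mice that received methamphetamine (MA) at doses that rose from week to week. The behavioral tests for anxiety followed, after which the animals were killed. All directions below rest on these labels, and they are in doubt. The immediate early genes Fos, Egr1, Arc and Nr4a1, which neurons switch on with activity, were lower in every library labelled MA than in every library labelled Control, with log2 differences (MA minus Control) from -1.80 to -1.45 (limma adjusted p from 0.0181 to 0.0315). The study's text gives these genes the opposite direction under MA. The group names of the table may therefore be exchanged, in which case every difference below would change sign, and the data used here do not settle it. HIPP tissue was sequenced in bulk, so that fewer cells of a type and less RNA per cell cannot be told apart. Whether each library came from a different mouse is not stated, and the p-values measure only the spread between these libraries, which may be technical.

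Oligodendrocyte precursors are dividing glial cells spread throughout the adult brain, HIPP included. They carry the PDGF receptor Pdgfra and the proteoglycan Cspg4 (NG2) on their surface, and they depend on PDGF for their survival and division. When a precursor commits to differentiation it loses these surface proteins, passes through a short stage marked by Gpr17 and Bmp4, and then forms a young oligodendrocyte marked by Enpp6, before the myelin genes rise. The transcription factors Olig1, Olig2 and Sox10 are kept through the whole lineage.

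The stretches upstream of Pdgfra and Enpp6 are shown because these genes had the largest differences of the 8 between the groups, in opposite directions. Each runs 5′ to 3′ over the 250 bases before the RefSeq start site on GRCm38.p6. Capitals mark E-boxes (CANNTG, the core bound by basic helix-loop-helix factors such as Olig2) and SOX cores (AACAAT or ACAAAG), searched on both strands. RefSeq promoters were matched for 5 of the 8 members.
Pdgfra (chr5:75152001-75152250, plus strand): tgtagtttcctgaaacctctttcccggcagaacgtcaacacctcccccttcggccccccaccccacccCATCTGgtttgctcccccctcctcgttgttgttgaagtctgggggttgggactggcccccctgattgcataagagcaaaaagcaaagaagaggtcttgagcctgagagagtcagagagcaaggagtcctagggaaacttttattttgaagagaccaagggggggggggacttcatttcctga
Enpp6 (chr8:46986637-46986886, plus strand): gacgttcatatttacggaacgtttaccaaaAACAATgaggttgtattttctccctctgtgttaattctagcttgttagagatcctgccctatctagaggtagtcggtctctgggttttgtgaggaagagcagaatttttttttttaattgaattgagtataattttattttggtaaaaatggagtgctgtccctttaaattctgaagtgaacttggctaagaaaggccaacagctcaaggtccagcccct
The Pdgfra window held 1 E-box, at position -182 from the start site, and no SOX core. The Enpp6 window held 1 AACAAT, at position -220, and no E-box. Among 32851 promoter windows of the same length, 66.2% held an E-box, 9.42% held AACAAT and 16.5% held ACAAAG. The GC content was 54.4% for Pdgfra and 38.4% for Enpp6.

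On GRCm38 (GENCODE M21), Pdgfra (ENSMUSG00000029231) lies on chromosome 5 from 75152292 to 75198215 in 27 exonic stretches, and Enpp6 (ENSMUSG00000038173) on chromosome 8 from 46986887 to 47096762 in 8. Olig2 (ENSMUSG00000039830) and Olig1 (ENSMUSG00000046160) are neighbors on chromosome 16, from 91225457 to 91228677 and from 91269772 to 91271933, with 41094 bases between them. Cspg4 (ENSMUSG00000032911) is on chromosome 9 from 56865033 to 56899870, Sox10 (ENSMUSG00000033006) on chromosome 15 from 79154908 to 79165240, Bmp4 (ENSMUSG00000021835) on chromosome 14 from 46383520 to 46390669, and Gpr17 (ENSMUSG00000052229) on chromosome 18 from 31942997 to 31949636. Cspg4, Olig2 and Sox10 overlap no other annotated gene. Gpr17 overlaps the coding gene Lims2 on the opposite strand, and Pdgfra, Olig1, Bmp4 and Enpp6 overlap opposite-strand genes of predicted or RIKEN names. Pdgfra also holds the microRNA gene Mir7025 on its own strand. Use of strand in the counting is not given in the sources used here, so the values of these 5 members are uncertain to that extent.

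The table holds length-scaled values (named as RPKM) on a log scale, read as log2 of the value plus 1, and read totals are not part of it, so the depth is unknown. The library labelled MA replicate 3 stood apart. Its mean Pearson correlation with MA replicates 1 and 2 was 0.978 over the 13321 genes that passed the filter on low values, while the other libraries reached 0.984 to 0.993 within their groups. Results are therefore also given without it. No row was at 0 in MA replicate 3, where the lowest value was 0.000206, while 259 to 437 rows were at 0 in each of the other libraries, so that a value above 0 in MA replicate 3 does not by itself show detection. Markers of neurons, astrocytes and microglia were above 0 in the other 5 libraries.

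To see how strongly each gene was expressed in HIPP, the members were ordered by their mean log2 level over the 6 libraries. Olig1 was highest at 5.88 ± 0.15 (SD, n = 6), followed by Sox10 at 3.84 ± 0.16, Olig2 at 3.50 ± 0.12, Gpr17 at 3.19 ± 0.15 and Pdgfra at 2.61 ± 0.35. Cspg4 at 1.65 ± 0.13, Bmp4 at 1.49 ± 0.20 and Enpp6 at 1.32 ± 0.36 were lowest. From Olig1 down to Cspg4 each gene lay above the next in 6 of 6 libraries. Cspg4 exceeded Bmp4 by 0.17 ± 0.20 on the log2 scale (SD, n = 6), in 5 of 6 libraries, and Bmp4 exceeded Enpp6 by 0.17 ± 0.39, in 4 of 6, so these neighbors in the order did not differ beyond their spread. All 8 members passed the filter, and none was at 0 in the 5 libraries that hold rows at 0.

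None of the 8 members passed an adjusted p-value under 0.05 between the groups (limma with Benjamini-Hochberg adjustment over 13321 genes), where 0.263% of all tested genes did. With no filter on low values it was again 0 of 8, against 0.0187% of all rows. An unadjusted p-value under 0.05 was reached by 1 member, Pdgfra, against 10.4% of all tested genes. For 0 of the 8 members did the libraries of one group lie entirely on one side of the other, against 17.5% of all tested genes (7.32% with MA higher and 10.2% with MA lower). In the MA libraries 5 members had a higher mean and 3 a lower one. The median log2 difference (MA minus Control) of the members was 0.069, while that of all tested genes was -0.010. Without MA replicate 3, 1 of the 8 members (Pdgfra) passed, against 1.93% of all tested genes. With limma's sample quality weights, which gave MA replicate 3 a weight of 0.194 and the other libraries weights from 0.937 to 2.45, Pdgfra and Enpp6 passed, 2 of 8 against 4.4%.

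**Figure D1:**
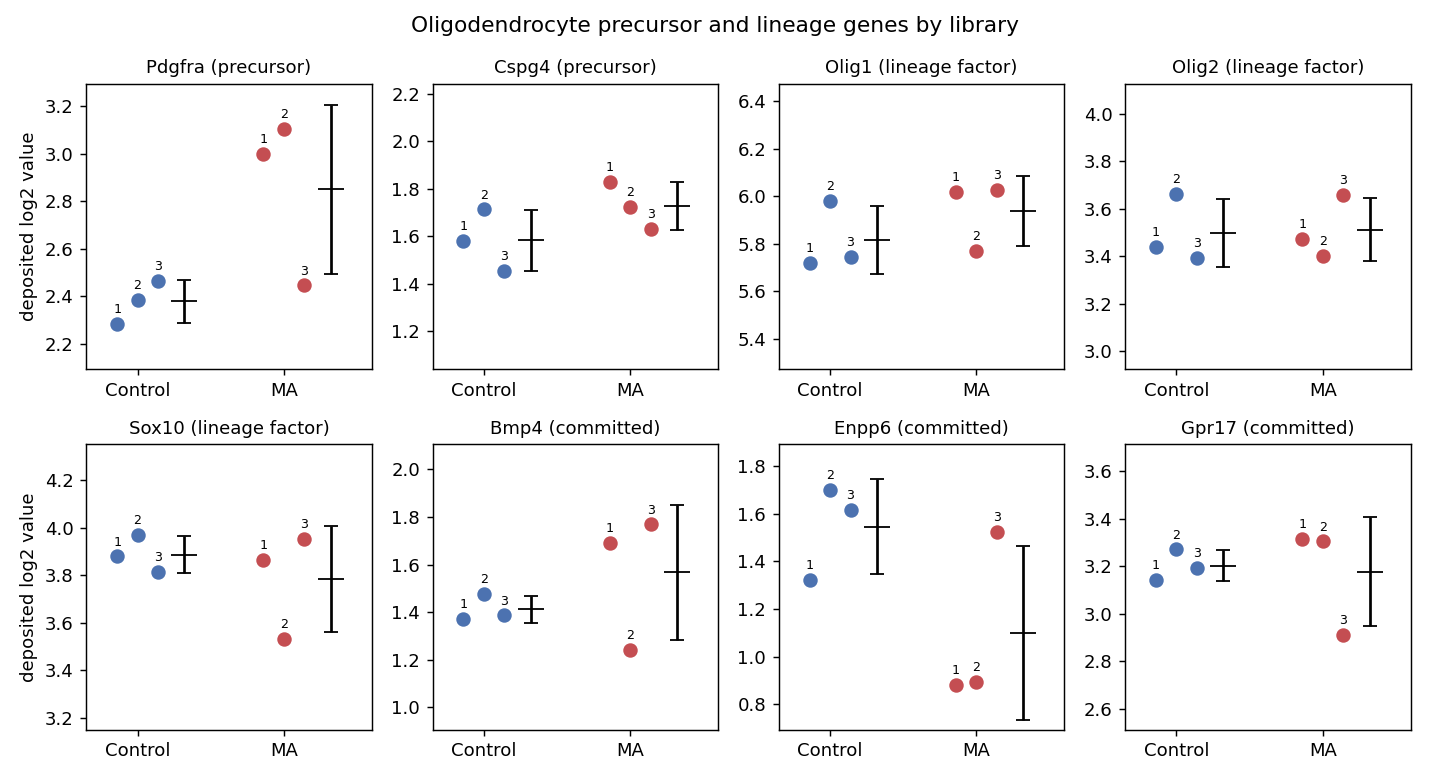
Deposited log2 values of the 8 members in the 3 Control (blue) and 3 MA (red) libraries, with replicate numbers beside the points and the mean ± SD (n = 3) beside each group; every panel spans the same number of log2 units. Pdgfra lay at 2.997 and 3.10 in MA replicates 1 and 2 and at 2.45 in MA replicate 3, inside the Control range, and the groups overlapped in all 8 panels.

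Among the precursor surface genes, Pdgfra, the receptor through which PDGF holds precursors in division, was at log2 values of 2.28, 2.38 and 2.47 in Control replicates 1, 2 and 3. It was at 2.997, 3.10 and 2.45 in MA replicates 1, 2 and 3. MA replicates 1 and 2 lay above every Control library, whereas MA replicate 3 lay inside the Control range. The means were 2.38 ± 0.091 and 2.85 ± 0.35 (SD, n = 3 each), a log2 difference of 0.47 (standard error 0.18, 95% interval 0.057 to 0.89, limma adjusted p = 0.423). In an exact two-sided permutation test of Pdgfra the p was 0.2, where 0.1 is the smallest p that 3 libraries against 3 allow. As the offset of 1 compresses low values, the ratio of the back-transformed means was also taken, and it was 1.51 (MA over Control). Without MA replicate 3, the log2 difference of Pdgfra was 0.67 (standard error 0.096, limma adjusted p = 0.0328), and with sample quality weights it was 0.66 (limma adjusted p = 0.0247).

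Cspg4, the NG2 proteoglycan, which pericytes of the vessel wall carry as well, was at log2 values of 1.58, 1.71 and 1.45 in the Control libraries and at 1.83, 1.72 and 1.63 in the MA libraries. MA replicate 3 lay between the Control values. Its log2 difference was 0.14 (standard error 0.12, 95% interval -0.13 to 0.41, limma adjusted p = 0.726). Thus the precursor surface genes were both higher on average in the MA libraries, and neither passed the test over all 6 libraries.

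**Figure D2:**
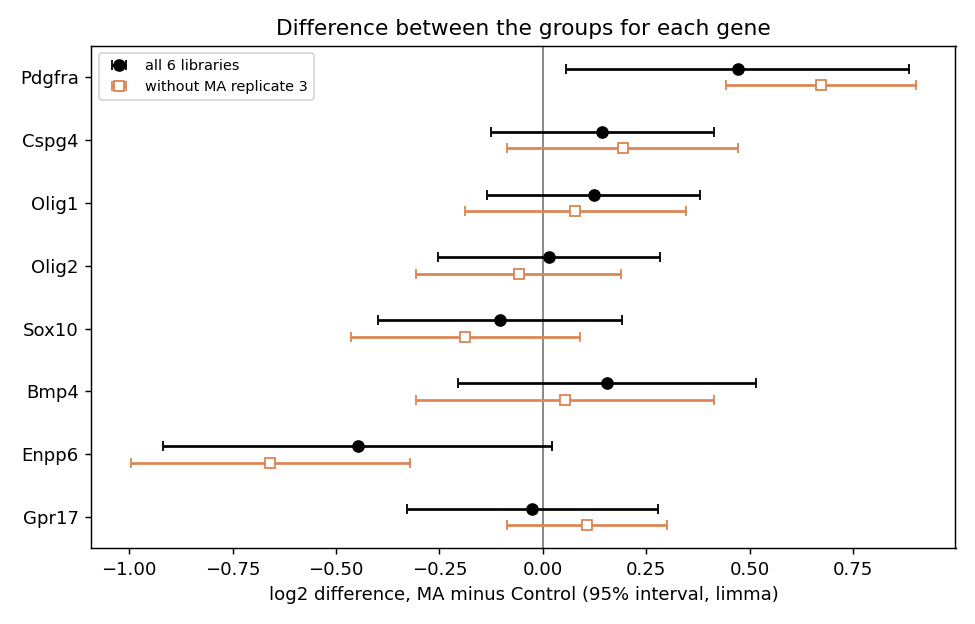
Log2 difference (MA minus Control) of each member with its 95% interval from limma, over all 6 libraries (black circles) and without MA replicate 3 (open orange squares). The interval of Pdgfra lay above 0 in both fits, that of Enpp6 lay below 0 only without MA replicate 3, and the intervals of the other 6 members held 0 in both.

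The lineage transcription factors lay close together in the 2 groups. Olig1 was at log2 values of 5.72, 5.98 and 5.75 in the Control libraries and at 6.02, 5.77 and 6.03 in the MA libraries. Control replicate 2 was about as high as MA replicates 1 and 3, and the log2 difference was 0.12 (95% interval -0.13 to 0.38, limma adjusted p = 0.753). Olig2, the basic helix-loop-helix factor that specifies the lineage, was at 3.44, 3.66 and 3.39 in the Control libraries and at 3.47, 3.40 and 3.66 in the MA libraries. Control replicate 2 and MA replicate 3 were the high libraries of their groups, and the log2 difference was 0.015 (95% interval -0.25 to 0.28, limma adjusted p = 0.979). Sox10, which directly activates myelin genes, was at 3.88, 3.97 and 3.81 in the Control libraries and at 3.87, 3.53 and 3.95 in the MA libraries. MA replicate 2 alone lay below the Control range, and the log2 difference was -0.10 (95% interval -0.40 to 0.19, limma adjusted p = 0.838). The direction of Olig2 was not stable, as its log2 difference was -0.059 without MA replicate 3.

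Among the genes of the committed and newly forming stage, Enpp6, a choline phosphodiesterase of young oligodendrocytes, had the largest difference. It was at log2 values of 1.32, 1.70 and 1.62 in the Control libraries and at 0.88, 0.89 and 1.52 in MA replicates 1, 2 and 3. MA replicates 1 and 2 lay below every Control library, and MA replicate 3 lay between the Control values. The means were 1.55 ± 0.20 and 1.10 ± 0.37 (SD, n = 3 each), a log2 difference of -0.45 (standard error 0.20, 95% interval -0.92 to 0.023, limma adjusted p = 0.499, exact permutation test two-sided p = 0.2). The back-transformed mean was 1.63 times as high in the Control libraries as in the MA libraries. Without MA replicate 3 the log2 difference was -0.66 (standard error 0.14, limma adjusted p = 0.0694), and with sample quality weights the limma adjusted p was 0.0417.

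Bmp4, a secreted ligand that holds precursors back from differentiation, was at 1.37, 1.48 and 1.39 (log2 values) in the Control libraries and at 1.69, 1.24 and 1.77 in those labelled MA. The MA libraries lay on both sides of the Control range, and the log2 difference was 0.16 (95% interval -0.21 to 0.52, limma adjusted p = 0.788). Gpr17, a receptor whose loss of expression allows final maturation, was at 3.14, 3.27 and 3.19 in the Control libraries and at 3.31, 3.30 and 2.91 in the MA libraries. MA replicate 3 lay below and the other MA libraries above all Control libraries, and the log2 difference was -0.025 (95% interval -0.33 to 0.28, limma adjusted p = 0.967). It was 0.11 without MA replicate 3. Lims2, the coding gene that overlaps Gpr17, was at 3.10, 3.21 and 3.09 in the Control libraries and at 3.11, 2.86 and 3.50 in the MA libraries. Its log2 difference was 0.023 (limma adjusted p = 0.977).

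The members did not share a single profile across the libraries. The SD was larger among the MA libraries than among the Control libraries for 6 of the 8 members (75.0%), close to the 71.1% of all tested genes. Pdgfra exceeded Enpp6 by 0.96, 0.68 and 0.85 on the log2 scale in Control replicates 1, 2 and 3, and by 2.11, 2.21 and 0.92 in MA replicates 1, 2 and 3, a contrast chosen after the values were seen and given as a description. Each gene was also standardized over the 6 libraries and set against the mean profile of the 8 members, which was high in Control replicate 2, MA replicate 1 and MA replicate 3. The root-mean-square distance from it, in SD units, ran from 0.226 for Olig1 to 1.30 for Gpr17. The 5 other tested genes nearest to it were Mrps11, Ntn5, Dock5, Slc7a10 and Cyp2d22, at distances from 0.184 to 0.294 over 6 libraries.

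Further genes of the lineage were then examined. Of 19 precursor genes, Pdgfra and Cspg4 included, 10 were higher and 9 lower in the MA libraries and 0 passed the adjusted threshold (limma), with a median log2 difference of 0.0024. Tmem100 and Rlbp1 had the largest differences, both negative. Tmem100 was at log2 values of 3.04, 3.11 and 3.11 in the Control libraries and at 2.72, 2.43 and 2.53 in the MA libraries, without overlap, a log2 difference of -0.53 (limma adjusted p = 0.147). Rlbp1, which encodes a retinaldehyde-binding protein, had a log2 difference of -0.49 (limma adjusted p = 0.38). The 15 further lineage transcription factors that were tested, of 16 listed, had a median of -0.012, with 7 higher, 8 lower and 0 called. Hes5, a Notch target, was at 2.61, 2.91 and 3.28 in the Control libraries and at 3.50, 3.35 and 4.26 in the MA libraries, a log2 difference of 0.77 (limma adjusted p = 0.383).

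Of 16 genes of the committed and newly formed oligodendrocyte, 6 were higher, 10 lower and 0 called, with a median of -0.040. Tcf7l2, which marks newly formed oligodendrocytes and is also abundant in thalamic neurons, had the largest difference there. Its log2 values were 1.66, 1.15 and 2.43 in the Control libraries and 3.21, 3.08 and 1.68 in the MA libraries, so that the groups overlapped (log2 difference 0.91, limma adjusted p = 0.56). Tmem163, a zinc transporter gene, had a log2 difference of 0.44 (limma adjusted p = 0.473). Of 22 mature myelin genes, 19 were lower and 3 higher, with a median of -0.20, and 1 passed the threshold, Enpp2, which was higher by 2.13 (limma adjusted p = 0.0244) and also belongs to the choroid plexus markers. Opalin had the largest negative difference, at -0.59 (limma adjusted p = 0.599). The MA libraries differed among themselves. The mean log2 value of the 22 myelin genes was 5.18, 5.41 and 5.16 in Control replicates 1, 2 and 3. It was 5.14, 4.83 and 5.46 in MA replicates 1, 2 and 3, so that MA replicate 2 was the lowest library and MA replicate 3 the highest. This mean includes Enpp2, at 7.79 in MA replicate 3 and 5.38 in Control replicate 2. The place of MA replicate 3 above Control replicate 2 rests on that gene. Without MA replicate 3 the median log2 difference of the myelin genes was -0.38.

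**Figure D3:**
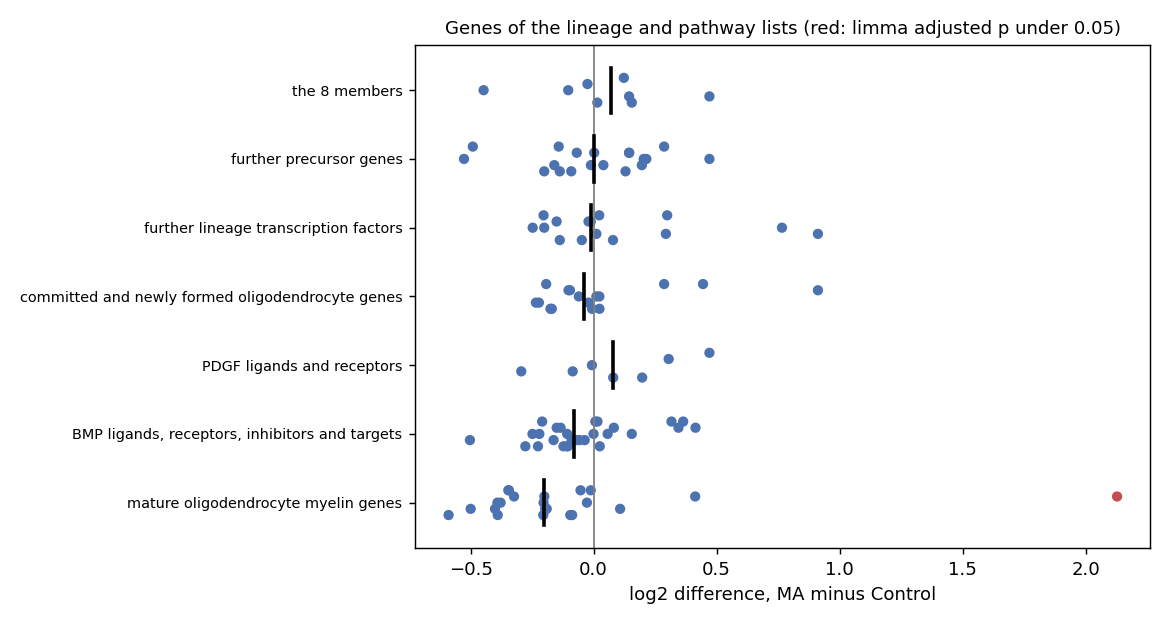
Log2 difference (MA minus Control) of each tested gene of the lineage and pathway lists, with the list median as a black bar and genes of adjusted p under 0.05 (limma) in red. The medians lay between -0.20 for the myelin genes and 0.080 for the PDGF genes, and Enpp2, at 2.13, was the 1 called gene.

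The pathways of Pdgfra and Bmp4 were also followed. All 7 PDGF ligands and receptors were tested, of which 4 were higher, 3 lower and 0 called, with a median log2 difference of 0.080. The ligand gene Pdgfd was at log2 values of 1.595, 1.40 and 1.54 in the Control libraries and at 2.02, 1.96 and 1.47 in the MA libraries, a log2 difference of 0.31 (limma adjusted p = 0.582), with MA replicate 3 again inside the Control range. Of 29 BMP ligands, receptors, inhibitors and targets 28 were tested, of which 10 were higher, 18 lower and 0 called, with a median of -0.079. Grem1, a secreted BMP inhibitor, was at 1.38, 1.30 and 1.12 in the Control libraries and at 0.69, 0.88 and 0.71 in the MA libraries (log2 difference -0.50, limma adjusted p = 0.22). The ligand gene Bmp6 had a log2 difference of 0.41 (limma adjusted p = 0.47).

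Markers of tissue around HIPP were also examined. All 10 thalamic markers, Tcf7l2 among them, had a higher mean in the MA libraries, and 0 passed the threshold. Their summed back-transformed level ran from 44.7 to 70.9 in the Control libraries and was 148, 153 and 67.7 in MA replicates 1, 2 and 3, so that MA replicates 1 and 2, the libraries in which Pdgfra was highest and Enpp6 lowest, were also highest for these markers. Tnnt1, a thalamic marker, was at log2 values of 4.12, 4.69 and 2.20 in the MA libraries and between 1.99 and 2.41 in the Control libraries (log2 difference 1.48, limma adjusted p = 0.435). Calb2 had a log2 difference of 1.44 (limma adjusted p = 0.203). Without MA replicate 3, 2 of the 10 thalamic markers passed. None of them was at 0 in the 5 libraries that hold rows at 0, and their part in the Pdgfra and Enpp6 values was not tested.

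All 10 choroid plexus markers were higher in every MA library than in every Control library, and 6 passed the threshold. Their summed level ran from 101 to 477 in the Control libraries and from 1931 to 5311 in the MA libraries, highest in MA replicate 3, where Pdgfra and Enpp6 were inside the Control range. Ttr dominates this sum, and its log2 value of 12.3 in MA replicate 3 is the highest value that any library holds. The mean log2 value of the list was 3.77, 4.21 and 4.39 in MA replicates 1, 2 and 3. Folr1, Clic6 and Kl were highest in MA replicate 2, and the other markers in MA replicate 3. Ttr had a log2 difference of 4.09 (limma adjusted p = 0.0887). Aqp1, Clic6, Slc4a5, Kl and Folr1, which passed besides Enpp2, had log2 differences of 1.66, 1.999, 1.70, 1.43 and 2.10. Fibroblasts of the meninges also carry Pdgfra. The summed level of 10 fibroblast and meningeal markers ran from 45.9 to 57.0 in the Control libraries and from 88.9 to 116 in the MA libraries, with 8 higher and 0 called. Dcn and Igf2 made up this difference, since the sum of the other 8 ran from 16.1 to 20.3 in the Control libraries and from 18.6 to 19.9 in the MA libraries, and the median log2 difference of the list was 0.067. Dcn was at log2 values of 4.61, 4.49 and 3.62 in the MA libraries and between 2.77 and 3.09 in the Control libraries (log2 difference 1.30, limma adjusted p = 0.14, or 0.0124 without MA replicate 3), and Igf2 had a log2 difference of 1.26 (limma adjusted p = 0.0783). For the 10 pericyte and smooth muscle markers, which bear on Cspg4, the summed level ran from 94.2 to 103 in the Control libraries and from 99.7 to 103 in the MA libraries, with 6 higher and 0 called, and the largest differences were 0.24 for Myh11 and 0.21 for Tagln. The part of these cells in the member values was not tested.

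**Figure D4:**
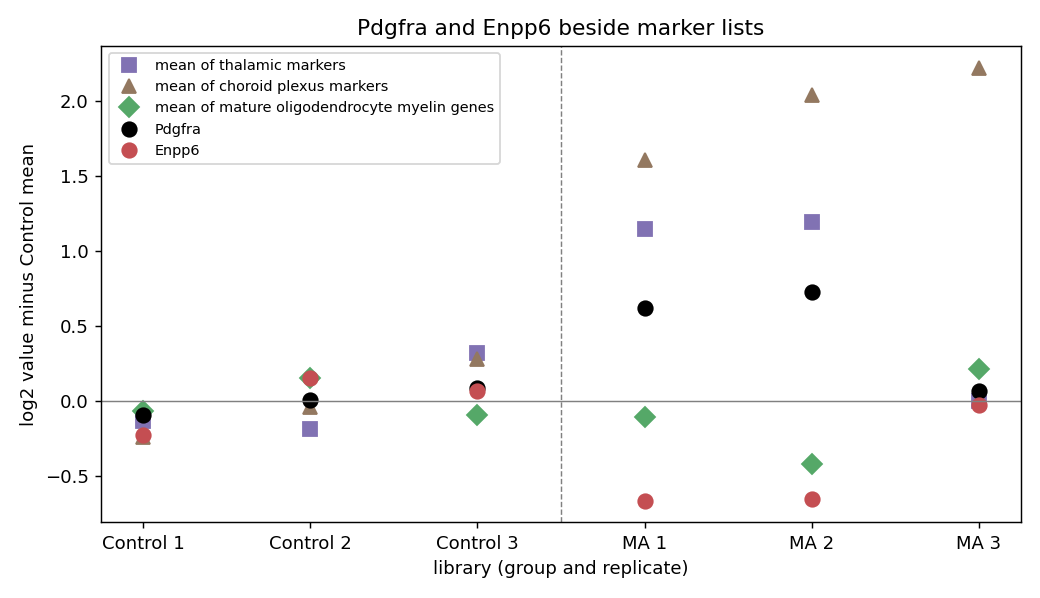
Log2 value of Pdgfra and Enpp6, and mean log2 value of the thalamic, choroid plexus and myelin lists, in each library, minus the mean of the Control libraries. Enpp2 is in both the choroid plexus and the myelin list. Pdgfra (0.62 and 0.73) and the thalamic markers (1.15 and 1.19) were above the Control libraries in MA replicates 1 and 2, where Enpp6 was at -0.66 and -0.65. In MA replicate 3 these lay between -0.023 and 0.067.

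The 10 astrocyte markers had a median log2 difference of -0.045, the 10 neuron markers -0.039 and the 10 microglia markers -0.018, with 0 called in each list. The summed level of the neuron markers ran from 2771 to 3027 in the Control libraries and was 3129, 3308 and 2344 in MA replicates 1, 2 and 3. That of the astrocyte markers ran from 1091 to 1189 in the Control libraries and was 1313, 1303 and 987 in MA replicates 1, 2 and 3. By these sums MA replicates 1 and 2 were highest here too. By the mean log2 value they were highest for the astrocyte markers (6.25 and 6.23, against 6.00 to 6.17 in the Control libraries). For the neuron markers they were not, as Control replicate 3 (6.89) lay above MA replicate 2 (6.87). The mean log2 value of the thalamic markers was 3.45 and 3.49 in MA replicates 1 and 2, against 2.11 to 2.62 in the Control libraries. The summed microglia markers were highest in Control replicate 2. The largest differences in these lists were 0.62 for Fgfr3 and 0.46 for Gjb6 among the astrocyte markers, -0.43 for Neurod6 and -0.30 for Wfs1 among the neuron markers, and -0.43 for Aif1 and -0.23 for P2ry12 among the microglia markers, none with an adjusted p under 0.05 (limma).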

How the data were processed

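RNA-seq libraries of HIPP labelled Control (3) and MA (3) were used. Per the paper's methods, Hisat2 placed the read pairs on the genome and featureCounts gave the counts behind the length-scaled values; the labels name Bowtie 0.12.2 and the builds mm8 and mm9. The authors deposited 1 table, named as RPKM, whose values lie on a log2 scale as read here. Its log transform and its normalization between libraries are not described, and the highest value is 12.3 in every library. Exact values also recur between libraries, such as 10.7687825 for Ttr in MA replicate 1 and for Mbp in MA replicate 2. Coordinates are those of GRCm38 and serve for location only.

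A gene was kept if 3 or more libraries had a back-transformed value of 0.5 or higher, which left 13321 of 16060 rows. On the log2 values as deposited, limma 3.58.1 in R 4.3.3 (eBayes with a trend, two-sided, no covariate) was run, and calls were made at a Benjamini-Hochberg adjusted p-value under 0.05. Single genes were also tested by exact permutation. Members, lists and tests were chosen with earlier results of these data known. From each list the called genes (at most 5) and the 2 with the largest differences were named, with the 5 tested genes nearest to the members' mean profile. Lims2, which overlaps Gpr17, the immediate early genes, Folr1 and the fibroblast sum without Dcn and Igf2 were added after their values were seen. Promoter sequences are from RefSeq. The test was checked on simulated data that had no outlying library and shifts larger than any member difference. That check therefore does not cover differences of the size seen in the members. No other column held values. Alternatives were 2 pseudocounts (0.1 and 0.01), no filter, a minimum mean of 5, median centring, quantile normalization, no trend, sample quality weights, a replicate block and leaving out each library.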

Additional observations from a re-analysis of the deposited data

How the results depend on the processing

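The count of 35 called genes became 3 with no filter, 20 with a minimum mean of 5 (where 5 of the 8 members were tested), 15 with the replicate block and 586 with sample quality weights, and it ran from 0 to 257 when each library was left out in turn (3, 0 and 0 without Control replicates 1, 2 and 3, and 15, 0 and 257 without MA replicates 1, 2 and 3). The fit without MA replicate 3 was singled out after the data were seen. The count of 0 called members became 2 with sample quality weights (Pdgfra at 0.66 and Enpp6 at -0.65) and ran from 0 to 1 when each library was left out, Pdgfra passing without MA replicate 3. The median log2 difference of the members was -0.016 with sample quality weights and ran from 0.025 to 0.14 with each library left out. With sample quality weights the log2 difference changed sign for Bmp4 (-0.036), Olig2 (-0.090) and Gpr17 (0.071). With each library left out it ran from -0.059 to 0.097 for Olig2, from -0.094 to 0.11 for Gpr17 and from -0.19 to 0.022 for Sox10. Pdgfra stayed between 0.34 and 0.67 and Enpp6 between -0.66 and -0.34. Why these values moved was not tested. Same-numbered libraries of the 2 groups did not deviate together (correlations of -0.197, -0.242 and -0.337 across genes, which are not independent replicates), and with the replicate block 0 members passed. Of 117 member values under the alternatives, 9 changed sign, 3 gained the call and 105 kept direction and side of the threshold. The direction was fixed in advance with no filter, the minimum mean of 5, no trend and the replicate block, which leave the log2 difference unchanged. Median centring and quantile normalization each gave 35 called genes again. As the libraries share their highest value and exact values recur between them, these alternatives may have had little to change. The 105 therefore do not measure stability. Every change of sign came with sample quality weights or with a library left out. As the depth is unknown, the precision of low genes such as Enpp6 and Bmp4 cannot be given.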
